A study of Homo sapiens with 24 samples.

Results

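The 7 genes that encode the ligands of the epidermal growth factor receptor (EGFR) family were followed across the states of a drug-treated lung cancer line: AREG (amphiregulin), EREG (epiregulin), HBEGF (heparin-binding EGF-like growth factor), TGFA (transforming growth factor alpha), BTC (betacellulin), EGF (epidermal growth factor) and EPGN (epigen). They were chosen by name from the gene table, in which all 7 have a line, among 19932 genes used. All 7 passed the filter on low counts (at least 10 counts in at least 3 libraries), which left 15211 genes to test. EPGN passed through the Resistant libraries alone, so that 6 of the 7 passed without them.

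The cells were labelled HCC827, an established line from a human lung adenocarcinoma whose EGFR carries an activating mutation. The drug of the series was osimertinib, an inhibitor of the mutant receptor's kinase. RNA was sequenced from Parental cells, from drug-tolerant persister (DTP) cells and from cells with acquired resistance (Resistant). Each state was carried with an empty vector (EV, genotype given as WT) or overexpressed cATF6, a circular RNA (OC), and each of the 6 resulting groups holds 3 libraries. The labels give no drug, dose or time for the DTP and Resistant libraries, and do not say whether a state or a construct is 1 clone or a pool. A further 6 libraries, of cells given DMSO or osimertinib for 10 days, entered here only through the host gene names of their circular RNA table.

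All 7 ligands are made as membrane-anchored precursors with an EGF-like domain. Metalloproteases, chiefly ADAM17 and ADAM10, cut them at the cell surface, and the freed ligand binds its receptor on the same or a neighbouring cell. EGF, TGFA, AREG and EPGN bind EGFR, while HBEGF, BTC and EREG can also bind ERBB4. AREG and EREG are themselves transcribed downstream of active EGFR and ERK in many epithelial cells, where they form a feed-forward loop. HBEGF also serves as the receptor for diphtheria toxin. Messenger RNA levels do not report cleavage or protein.

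Genes for 4 of the ligands stand next to each other on chromosome 4, in the order EPGN, EREG, AREG and BTC with no other protein-coding gene between them (RefSeq, GRCh38). AREG and EREG fell in both states and share this run of genes with EPGN, which was higher in Resistant cells. HBEGF moved against AREG and EREG in DTP cells. For these reasons the 250 bases before the start of these 4 ligand genes are shown. All 7 genes matched an entry in the RefSeq promoter table, TGFA with 2 starts. Capitals mark matches to 4 short motifs, searched on both strands: the cyclic AMP response element TGACGTCA, the AP-1 site TGANTCA, the TEAD site GGAATG and the TATA box TATAAA. Positions are GRCh38.p14, each sequence is written 5′ to 3′ on the gene's strand, and its last base is the one before the start. In order, the windows are chr4:74444886-74445135 (plus strand) for AREG, chr4:74364895-74365144 (plus) for EREG, chr4:74308220-74308469 (plus) for EPGN and chr5:140346604-140346853 (minus) for HBEGF.
AREG: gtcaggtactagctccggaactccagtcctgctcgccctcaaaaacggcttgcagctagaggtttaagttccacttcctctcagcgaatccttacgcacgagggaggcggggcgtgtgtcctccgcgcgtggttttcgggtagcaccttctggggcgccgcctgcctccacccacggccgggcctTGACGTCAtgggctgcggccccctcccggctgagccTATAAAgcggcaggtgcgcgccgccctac
EREG: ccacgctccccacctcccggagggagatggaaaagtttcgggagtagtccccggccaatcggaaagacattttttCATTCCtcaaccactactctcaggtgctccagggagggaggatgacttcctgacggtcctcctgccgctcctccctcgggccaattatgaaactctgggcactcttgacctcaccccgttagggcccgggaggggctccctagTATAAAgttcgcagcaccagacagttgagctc
EPGN: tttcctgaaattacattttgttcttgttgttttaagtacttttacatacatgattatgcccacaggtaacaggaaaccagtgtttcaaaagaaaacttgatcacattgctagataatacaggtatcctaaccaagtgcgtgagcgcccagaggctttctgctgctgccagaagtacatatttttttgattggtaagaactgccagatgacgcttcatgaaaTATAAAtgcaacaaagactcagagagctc
HBEGF: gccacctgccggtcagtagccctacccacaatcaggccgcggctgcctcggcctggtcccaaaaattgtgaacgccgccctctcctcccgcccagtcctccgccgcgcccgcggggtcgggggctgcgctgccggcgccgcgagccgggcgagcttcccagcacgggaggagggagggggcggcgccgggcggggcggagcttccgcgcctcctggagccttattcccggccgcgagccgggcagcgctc
The AREG window held the cyclic AMP response element at bases 65 to 58 before the start, a match found in 1.65% of 35116 promoters of this length. A TATA box stood at bases 29 to 24 in AREG and EPGN and at bases 32 to 27 in EREG, against 10.7% of all promoters. EREG held the TEAD letters on the other strand (CATTCC) at bases 175 to 170, as did EGF at bases 12 to 7, and 11.9% of all promoters held them. EGF had the AP-1 letters at bases 17 to 11, overlapping its TEAD match, as against 6.57% of promoters. HBEGF, TGFA and BTC had none of these letters in their windows. A match describes the letters and was not tied to any factor's binding.

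Library totals ran from 30075330 to 45068508 counts. Replicates within a group differed by more than counting error, with chi-square per degree of freedom of 5.38 to 17.1 outside DTP EV and 17.2 to 56.7 within it, where replicate 1 stood apart from the other two. Nothing in the labels says whether replicates are separate cultures, so p-values measure the spread between these libraries, which may be technical. That spread was pooled over all groups for each gene, so a gene has the same SE in every comparison of 2 groups. It can understate the spread of DTP EV. ATF6, the host gene of cATF6, had 1925 to 3328 scaled counts in the EV libraries and 17864 to 33152 in the OC libraries, a count that does not separate circular from linear transcripts. Epithelial markers were abundant in every library (7 of 7 genes detected, summed scaled counts 219140 to 285220 in Parental and DTP libraries and 864860 to 982800 in Resistant ones). Lung lineage markers (NKX2-1, NAPSA, SFTPB, SFTPC) summed to 4543 to 8739 in Parental and DTP libraries and to 6.38 to 60.6 in Resistant ones. NKX2-1 and NAPSA carried this sum, and SFTPC was at or near 0 in every group. The libraries labelled Resistant are thus nearly without the lineage markers that the other HCC827 libraries express. Whether they come from HCC827, as labelled, was not tested. Fibroblast markers summed to 531.9 to 1738 outside and 4601 to 12147 within the Resistant libraries, endothelial markers to 133 to 454 and 561 to 1068, and blood cell markers to 1035 to 5558 and 44246 to 60579. In the Resistant libraries PDGFRB and CD68 made up most of the fibroblast and blood sums. The blood markers PTPRC, CD3E and HBB stayed between 0 and 29.8 in every library. CD68 and CD14, the 2 blood markers tested, were both higher in Resistant EV than in Parental EV (limma, adjusted p under 0.05), as were 38.3% of all genes. The Resistant libraries also form a library series of their own, by the library names in the labels, so wherever they enter a comparison state and library series cannot be told apart. The part of these differences in the ligand results was not tested. With the 6 Resistant libraries left out of the fit, the ligand calls in DTP against Parental EV and in Parental OC against EV were unchanged, and 1 call in DTP OC was lost. In bulk RNA, fewer cells of a type and less RNA per cell cannot be told apart either.

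Per kilobase of exon, AREG and EREG were the main ligand messages of Parental cells, AREG, EREG and HBEGF those of DTP cells, and TGFA, BTC and EGF those of Resistant cells. Levels were compared between genes as scaled counts per kb of exon, using the exons of GENCODE release 29. The annotation behind the counts is not given in the sources used here, so the order between genes is approximate. The summed level of the 7 was 7880 ± 154 per kb (SD, n = 3) in Parental EV, 1884 ± 198 in DTP EV and 2727 ± 79.8 in Resistant EV. The lowest Parental EV library lay above all DTP EV and Resistant EV libraries in this sum.

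In Parental EV, AREG stood at 3645 ± 45.4 per kb and EREG at 3520 ± 196, and their ranges overlapped (3606 to 3695 and 3308 to 3695). Together they made up most of the sum, 46.3% ± 1.49 and 44.6% ± 1.63. TGFA followed at 388 ± 9.94, BTC at 254 ± 5.76, EGF at 49.2 ± 1.54, HBEGF at 20.3 ± 9.36 and EPGN at 2.88 ± 0.998 per kb, and none of these neighbours in the order overlapped. In DTP EV the order began with AREG at 694 ± 74.0, EREG at 416 ± 142 and HBEGF at 379.6 ± 18.03 per kb. EREG and HBEGF overlapped there, as did BTC at 192 ± 28.3 and TGFA at 178 ± 45.9, with EGF at 19.9 ± 3.57 and EPGN at 3.38 ± 3.15 below them. In Resistant EV the order was TGFA at 1180 ± 29.3, BTC at 830.2 ± 48.5, EGF at 298 ± 21.98, EREG at 228 ± 14.4, EPGN at 118 ± 36.6, AREG at 43.2 ± 2.89 and HBEGF at 28.3 ± 2.91 per kb. No neighbours in that order overlapped.

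**Figure D1:**
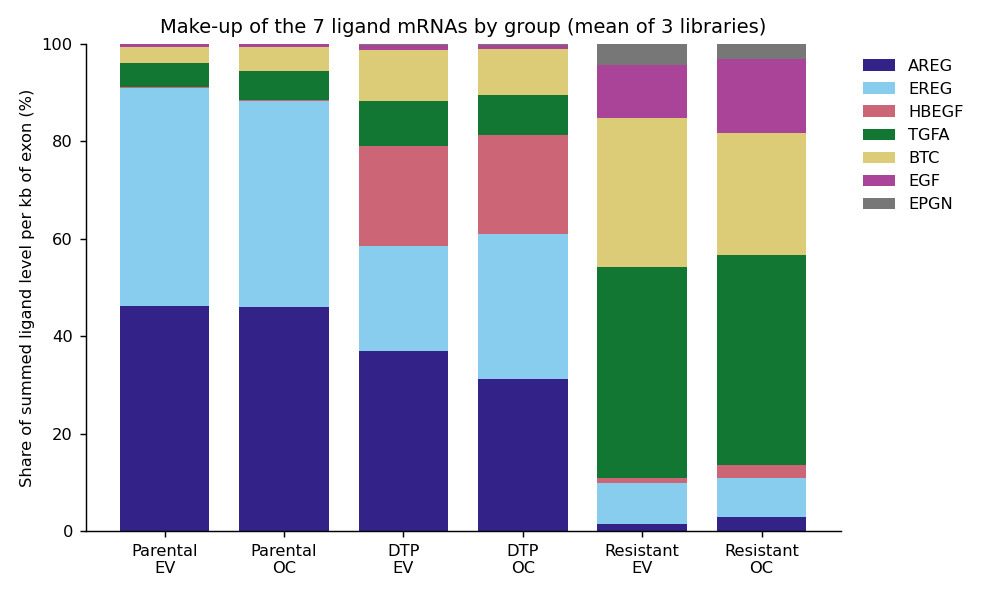
Share of each ligand in the summed level of the 7 per kb of exon (y axis, percent), as the mean of 3 libraries in each of the 6 groups (x axis). AREG and EREG fill 46.3% and 44.6% of the Parental EV bar, HBEGF takes 20.4% in DTP EV against 0.256% in Parental EV, and TGFA and BTC take 43.3% and 30.4% in Resistant EV.

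The comparison of DTP with Parental cells under empty vector asks how the ligands stand in cells that survive the drug. AREG, EREG, TGFA, EGF and BTC were lower in DTP cells and HBEGF was higher, by 19.5-fold, while EPGN stayed at a few counts. Of the 7, 1 was called higher and 5 lower at adjusted p 0.05 (limma, Benjamini-Hochberg adjustment over all genes tested), against 56.8% of all genes called, 28.6% higher and 28.2% lower. The median log2 change of the 7 was -1.15, beside 0 for all genes. The groups did not overlap for 6 of the 7, against 64% of all genes.

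AREG, a low-affinity EGFR ligand, stood at 4471, 4507 and 4582 scaled counts in the Parental EV libraries and at 950.2, 767 and 866 in the DTP EV libraries. All DTP values lay below all Parental ones. AREG fell 5.26-fold (log2 -2.40, SE 0.17, adjusted p = 7e-09). In hg19, the build named for these data, AREG has a near-identical copy, AREGB, which has no line in the table, so how reads that match both were counted is uncertain.

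EREG, which signals through EGFR and ERBB4, stood at 17067, 16430 and 15280 scaled counts in Parental EV and at 2649, 1736 and 1377 in DTP EV. The groups lay far apart, and DTP EV replicate 1 was the highest of its group. EREG fell 8.78-fold (log2 -3.13, SE 0.16, adjusted p = 6.9e-11), a fall wider than that of all but 1.08% of the genes tested.

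HBEGF, whose product also binds heparan sulphate at the cell surface, had 74.1, 37.7 and 33.4 scaled counts in Parental EV and 856, 928 and 933 in DTP EV. Every DTP library was more than an order of magnitude above every Parental one. HBEGF rose 19.5-fold (log2 4.29, SE 0.24, adjusted p = 2.8e-10), and 0.565% of genes rose more.

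TGFA, a close relative of EGF that tumour cells often make for themselves, had 1813, 1907 and 1870 scaled counts in Parental EV and 1110, 732 and 725 in DTP EV. The groups did not overlap, with replicate 1 again the highest DTP library. TGFA fell 2.22-fold (log2 -1.15, SE 0.12, adjusted p = 4.4e-07). EGF, the ligand that gave the family its name, had 234, 249 and 238 scaled counts in Parental EV and 77.3, 109 and 105 in DTP EV. It was lower in all DTP libraries and fell 2.48-fold (log2 -1.31, SE 0.13, adjusted p = 2.4e-07).

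BTC, a ligand of EGFR and ERBB4, had 726, 697 and 724 scaled counts in Parental EV and 464, 623 and 537 in DTP EV. All DTP EV values were below all Parental EV values. BTC fell 1.33-fold (log2 -0.41, SE 0.11, adjusted p = 0.0043). EPGN, a weakly binding EGFR ligand, had 5.07, 6.01 and 2.86 scaled counts in Parental EV and 2.97, 2.08 and 11.3 in DTP EV. The groups overlapped, and with 15 raw counts in each group the log2 difference was -0.04 (95% interval -1.31 to 1.23, adjusted p = 0.966).

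**Figure D2:**
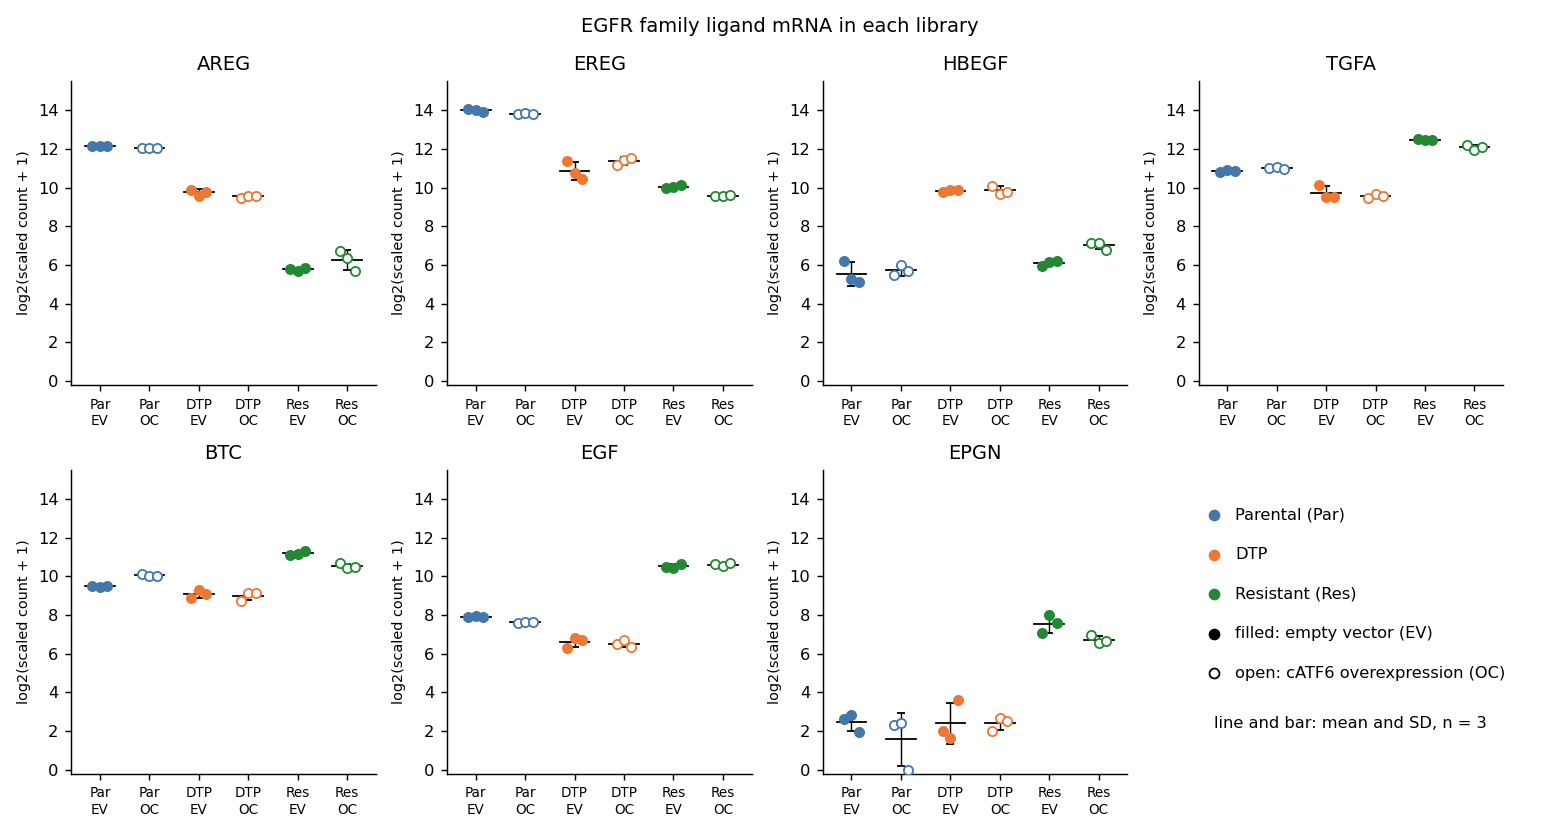
log2(scaled count + 1) of each ligand (y axis) in every library of the 6 groups (x axis), with the group mean and SD over 3 libraries. AREG and EREG step down from Parental to DTP to Resistant, HBEGF is high in the DTP libraries (823 to 1090 scaled counts), and TGFA, BTC, EGF and EPGN are highest in the Resistant libraries.

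Set against Parental cells, the libraries labelled Resistant had lower AREG and EREG and higher TGFA, BTC, EGF and EPGN. Of the 7 ligands 5 were called higher and 2 lower, beside 82.2% of all genes called, 38.3% higher and 43.9% lower. EPGN entered the test through the Resistant libraries alone, which favoured a difference here. Setting EPGN aside leaves 4 of the other 6 higher. The groups did not overlap for 6 of the 7, EPGN among them, against 84.6% of genes. A call in this comparison thus sets a gene apart from few others. The median log2 change was 1.603 for the 7 and -0.11 for all genes. EPGN counts toward that median of the 7, which is therefore given as a description.

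AREG had 54.1, 49.8 and 56.9 scaled counts in Resistant EV and fell 82.9-fold from Parental EV (log2 -6.37, SE 0.17, adjusted p = 2.6e-15). EREG had 992, 1049 and 1125 and fell 15.4-fold (log2 -3.94, SE 0.16, adjusted p = 2.9e-13). Both were lower in all Resistant EV libraries than in any Parental or DTP library. AREG fell further than EREG here but not in DTP cells, where EREG had the wider fitted fall. That order between the genes was not tested.

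TGFA had 5820, 5549 and 5617 scaled counts in Resistant EV, a 3.04-fold rise (log2 1.603, SE 0.12, adjusted p = 1.4e-09). BTC had 2221, 2305 and 2488, a 3.26-fold rise (log2 1.71, SE 0.11, adjusted p = 2.1e-10). EGF had 1410, 1379 and 1579, a 6.03-fold rise (log2 2.59, SE 0.13, adjusted p = 6.2e-12). For all 3 of these ligands the Resistant EV libraries were above every Parental and DTP library.

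EPGN had 133, 251 and 188 scaled counts in Resistant EV, where it was 33.9-fold higher than in Parental EV (log2 5.08, SE 0.60, adjusted p = 5.6e-07). Replicate 2 was the highest and replicate 1 the lowest, and all 3 lay above every Parental and DTP library. As EPGN passed the filter through these libraries, the difference is given as a description. The size of this fold rests on 15 raw counts in Parental EV and ran from 4.83 to 5.87 in log2 over the settings tried. RefSeq (GRCh38) places a long noncoding RNA gene over EPGN, and with the strand setting of the counting not given its reads and those of EPGN may not be separated.

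HBEGF had 59.7, 70.4 and 72.6 scaled counts in Resistant EV, close to Parental EV, and the groups overlapped through Parental EV replicate 1. Its log2 difference of 0.56 (SE 0.24) passed the threshold narrowly (adjusted p = 0.041). The call was lost with voom weights (adjusted p = 0.139) and in a fit of the 2 groups alone (0.159). It was also lost without Parental EV replicate 2 (log2 0.43, adjusted p = 0.150) or 3 (0.34, 0.211), Resistant EV replicate 2 (0.53, 0.0881) or 3 (0.50, 0.0998), or DTP OC replicate 3 (0.56, 0.0501). Without Parental EV replicate 1 the log2 difference was 0.90.

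**Figure D3:**
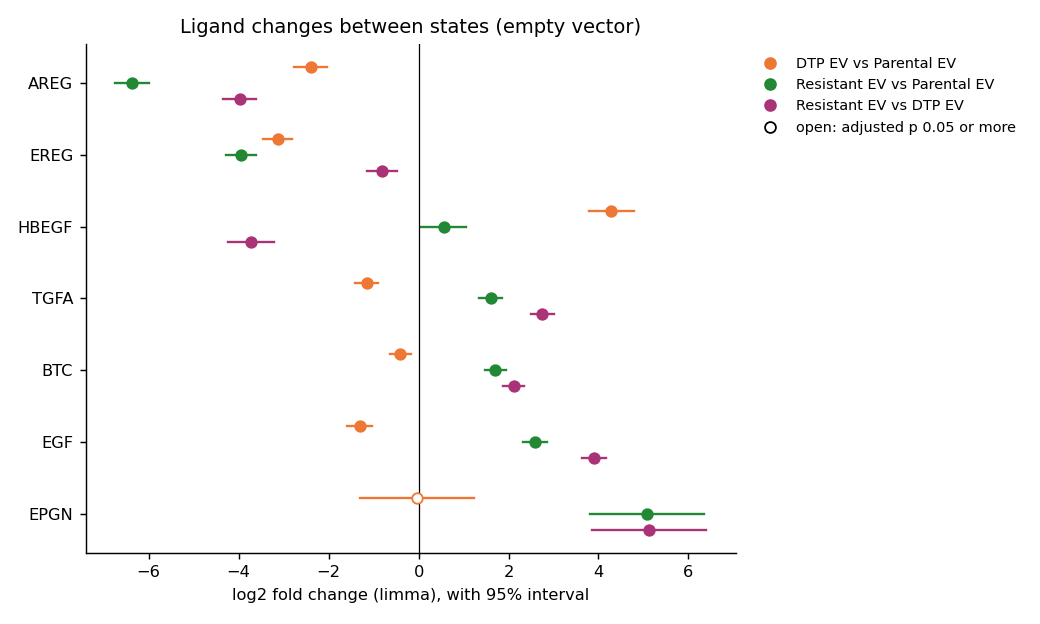
log2 fold change of each ligand (x axis) with its 95% interval for the 3 comparisons between states under empty vector, filled where adjusted p was under 0.05. HBEGF lies at 4.29 in DTP against Parental and at -3.73 in Resistant against DTP, and TGFA, BTC and EGF lie below 0 in DTP against Parental and above 0 in both comparisons with Resistant.

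Between the drug-tolerant and the resistant state, HBEGF, AREG and EREG were lower in Resistant EV and the other 4 were higher, against 80.6% of genes called, 43.3% lower and 37.2% higher. The groups did not overlap for any of the 7, EPGN included, against 78.7% of genes. EPGN entered the test through the Resistant libraries alone, which favoured a difference. Setting EPGN aside leaves 3 of the other 6 higher and 3 lower. HBEGF was 13.3-fold lower (log2 -3.73, SE 0.24, adjusted p = 2.2e-10), AREG 15.8-fold lower (log2 -3.98, SE 0.17) and EREG 1.75-fold lower (log2 -0.81, SE 0.16, adjusted p = 0.000147). The EREG difference was log2 -0.55 without DTP EV replicate 1, whose value was the highest of the DTP EV libraries. TGFA was 6.75-fold higher (log2 2.75, SE 0.12), BTC 4.34-fold (log2 2.12, SE 0.11), EGF 15.0-fold (log2 3.90, SE 0.13) and EPGN 34.9-fold (log2 5.12, SE 0.60). Leaving out 1 library moved the EPGN value between log2 4.73 (without DTP EV replicate 2) and 5.73 (without DTP EV replicate 3). These 3 comparisons share their samples in pairs, so their values stand side by side here and do not support each other.

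**Figure D4:**
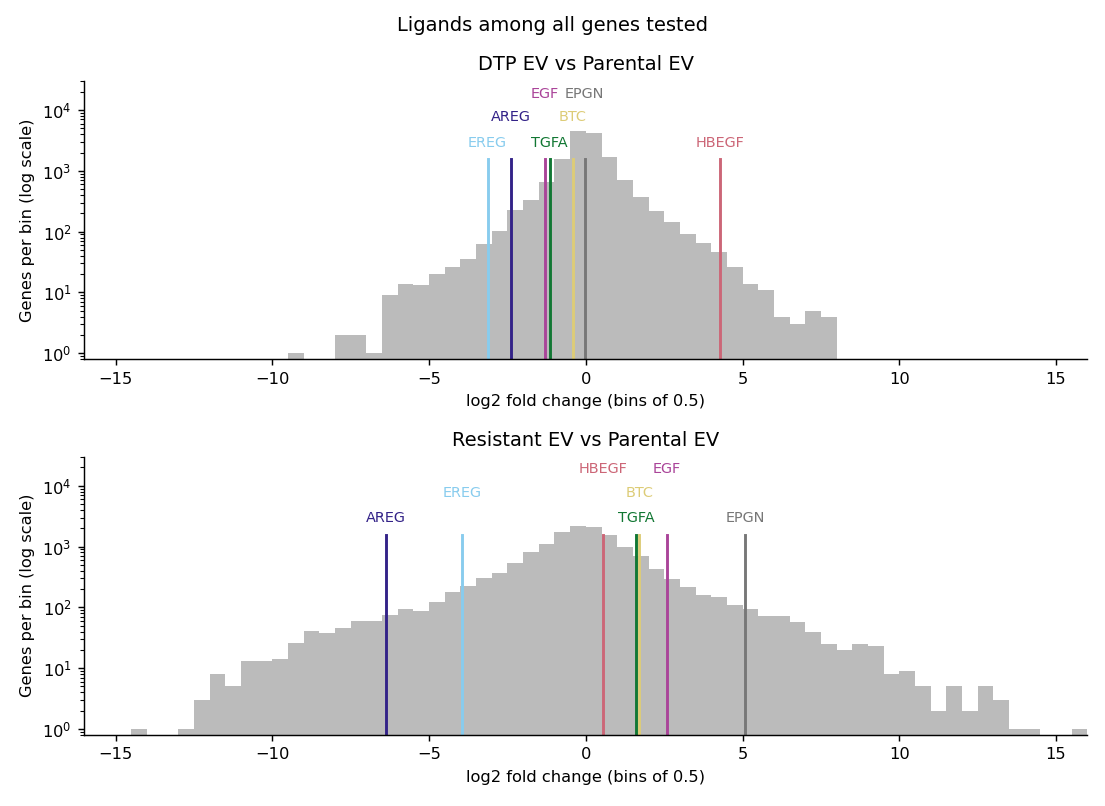
Number of genes (y axis, log scale) by log2 fold change (x axis, bins of 0.5) among the 15211 genes tested, with a line at each ligand, for DTP EV and Resistant EV against Parental EV. HBEGF stands in the upper tail of the DTP comparison, where 0.565% of genes rose more, and AREG in the lower tail of the Resistant comparison, where 2.22% of genes fell more.

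The series asks what the circular RNA cATF6 changes, and each state has its own comparison of OC with EV. In Parental cells BTC was higher under cATF6 and no other ligand was called. BTC had 1106, 1028 and 1037 scaled counts in Parental OC, all above the 697 to 726 of Parental EV. It rose 1.48-fold (log2 0.56, SE 0.11, adjusted p = 0.0024), the 1 ligand called of 7, against 13.9% of genes called, 6.13% higher and 7.73% lower. The groups did not overlap for 5 of the 7, beside 48.4% of genes.

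AREG in Parental OC had 4282, 4155 and 4275 scaled counts (log2 -0.09, 95% interval -0.46 to 0.28) and EREG 14437, 14741 and 14115 (log2 -0.17, -0.50 to 0.16). Both lay just below Parental EV without overlap. TGFA had 2089, 2114 and 2020, just above it (log2 0.15, -0.10 to 0.41), and EGF had 191, 198 and 196, below it (log2 -0.30, -0.57 to -0.03, adjusted p = 0.141). HBEGF had 43.7, 63.3 and 50.2 and EPGN 3.97, 4.40 and 0, both overlapping Parental EV. A fit of the 2 Parental groups alone, called AREG (adjusted p = 0.0148), EREG (0.0346), TGFA (0.0118) and EGF (0.0159) as well. EGF was also called without DTP EV replicate 1 (adjusted p = 0.0453).

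In DTP cells under cATF6, EREG was the 1 ligand called higher of 7 and none was lower, against 18.2% of genes called, 9.44% higher and 8.8% lower. EREG had 2281, 2779 and 2923 scaled counts in DTP OC, and its groups overlapped through DTP EV replicate 1. The rise was 1.43-fold (log2 0.52, SE 0.16, adjusted p = 0.030). It was lost without the mean-variance trend (adjusted p = 0.0551), without the Resistant libraries (0.0807) and in a fit of the 2 groups alone (0.263), in which 3 genes in all were called. It was also lost without DTP EV replicate 2 (log2 0.47, adjusted p = 0.102) or 3 (0.30, 0.169), or DTP OC replicate 2 (0.48, 0.0838) or 3 (0.44, 0.127). Without DTP EV replicate 1 the log2 difference was 0.775.

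HBEGF, the ligand that was high in DTP cells, had 1090, 823 and 887 scaled counts in DTP OC, spread around the DTP EV values (log2 0.03, 95% interval -0.47 to 0.54). AREG had 713, 757 and 766, all just below DTP EV (log2 -0.20, -0.57 to 0.17), the 1 ligand whose groups did not overlap, against 29.2% of genes. TGFA had 699, 814 and 743, BTC 426, 552.2 and 552.3, EGF 90.3, 102 and 79.6 and EPGN 3.05, 5.50 and 4.79. Each of these 4 overlapped DTP EV, and their log2 differences ran from -0.16 to 0.01.

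In Resistant cells cATF6 went with lower BTC, TGFA and EREG and higher HBEGF and AREG. Of the 7 ligands 2 were called higher and 3 lower, against 36.6% of genes called, 16.8% higher and 19.9% lower, and the groups did not overlap for 5, against 44.6%. BTC had 1630, 1376 and 1403 scaled counts in Resistant OC, all below the 2221 to 2488 of Resistant EV. It fell 1.59-fold (log2 -0.67, SE 0.11, adjusted p = 0.00017) and kept its call in all 26 other settings. HBEGF had 140.3, 140.7 and 110.2, all above Resistant EV, and rose 1.91-fold (log2 0.93, SE 0.24, adjusted p = 0.0057), also called in all 26.

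TGFA had 4759, 3940 and 4347 scaled counts in Resistant OC, below all Resistant EV libraries. It fell 1.31-fold (log2 -0.38, SE 0.12, adjusted p = 0.0185), a call lost under quantile normalization (adjusted p = 0.0561) and without Resistant EV replicate 1 (log2 -0.36, 0.0552) or Resistant OC replicate 2 (-0.32, 0.0838). EREG had 755, 761 and 778, below all Resistant EV libraries. It fell 1.38-fold (log2 -0.46, SE 0.16, adjusted p = 0.0282), and the call was lost under quantile normalization (0.0738) and voom weights (0.0862). Without Resistant EV replicate 2 its adjusted p was 0.0586, without replicate 3 it was 0.0896, and without Resistant OC replicate 1, 2 or 3 it was 0.0636, 0.0647 and 0.0562.

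AREG had 104, 82.3 and 49.7 scaled counts in Resistant OC, and the lowest of them lay within Resistant EV. Its log2 difference of 0.48 (SE 0.17, adjusted p = 0.0384) lost the call without trend (0.0553), with voom weights (0.257) and in the fit of the 2 groups alone (0.309). The call was also lost without Parental EV replicate 2 (0.050001), without Resistant EV replicate 1, 2 or 3 (0.0724, 0.107 and 0.0535), and without Resistant OC replicate 1 or 2 (0.211 and 0.119). The log2 difference itself ran from 0.25 without Resistant OC replicate 1 to 0.78 without replicate 3. EGF had 1559, 1461 and 1642 and overlapped Resistant EV (log2 0.09, 95% interval -0.18 to 0.37). EPGN had 123, 93.0 and 101, all below Resistant EV, with log2 -0.81 (95% interval -2.08 to 0.46) and adjusted p = 0.323, or 0.0221 with voom weights.

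**Figure D5:**
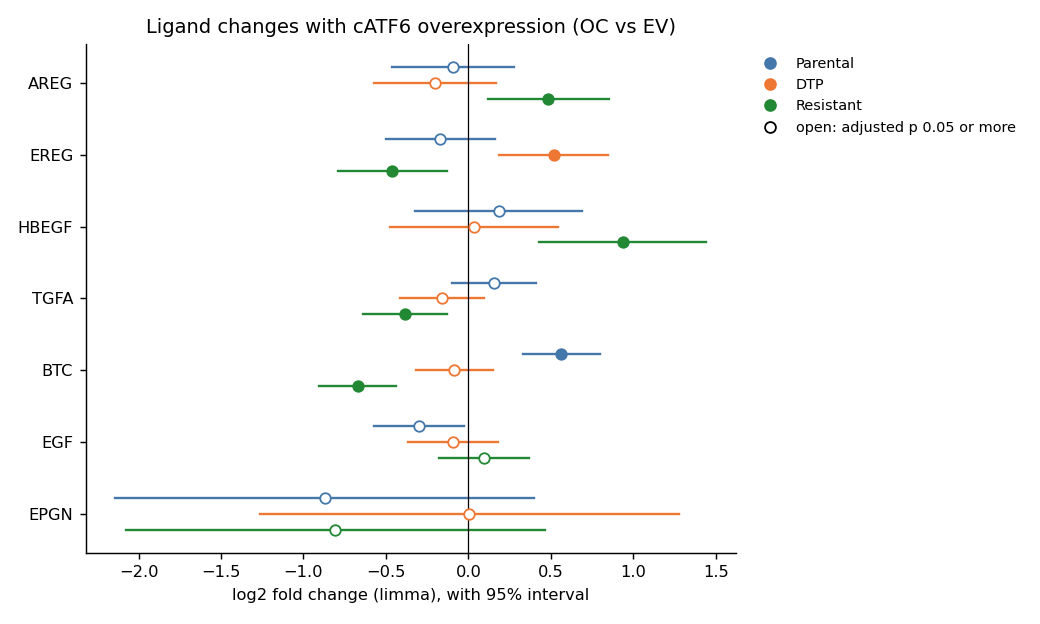
log2 fold change of each ligand (x axis) between OC and EV in Parental, DTP and Resistant cells, with 95% intervals, filled where adjusted p was under 0.05. BTC lies at 0.56 in Parental cells, -0.08 in DTP cells and -0.67 in Resistant cells, and HBEGF at 0.18, 0.03 and 0.93.

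The difference in the cATF6 effect between states was tested directly. BTC was the ligand whose response differed in all 3 pairs of states. Its OC effect was lower in DTP than in Parental cells by 0.65 in log2 (-0.65, SE 0.16, adjusted p = 0.0152; 1 of 7 ligands called, against 9.81% of genes, 5.2% higher and 4.61% lower). It was lower in Resistant than in Parental cells by more (log2 -1.23, SE 0.16, adjusted p = 2e-05) and lower in Resistant than in DTP cells (log2 -0.59, SE 0.16, adjusted p = 0.0091). These 3 calls for BTC held in every setting tried.

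TGFA responded differently in Resistant and Parental cells (log2 -0.54, SE 0.17, adjusted p = 0.0234), making 2 of 7 ligands called against 30.1% of genes, 14.3% higher and 15.8% lower. That call was lost without Parental EV replicate 1 (adjusted p = 0.0506) or Resistant OC replicate 2 (0.0610). Between Resistant and DTP cells, where 30.2% of genes were called, 14% higher and 16.3% lower, EREG (log2 -0.98, SE 0.22, adjusted p = 0.0029) and AREG (log2 0.69, SE 0.25, adjusted p = 0.0444) were called beside BTC. The EREG difference was called in all 26 other settings and the AREG difference in 4 of them, with adjusted p up to 0.144 and log2 0.46 without Resistant OC replicate 1. HBEGF missed the threshold for a difference from Parental (log2 0.75, adjusted p = 0.108) and from DTP cells (log2 0.90, adjusted p = 0.0549), the latter called in 7 of 26 other settings.

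Among the receptors, EGFR kept its level in DTP EV (202340 ± 3684 scaled counts in Parental EV and 196050 ± 2106 in DTP EV, log2 -0.05, 95% interval -0.15 to 0.05). ERBB2, the co-receptor that binds no ligand, rose 1.85-fold (log2 0.88, SE 0.08), ERBB3, a neuregulin receptor, rose 1.16-fold (log2 0.21, SE 0.08), and ERBB4, the second receptor of HBEGF, BTC and EREG, rose from 6.81 ± 3.48 to 56.9 ± 8.15 scaled counts (log2 3.00, SE 0.76, adjusted p = 0.0030). So 3 of the 4 were called higher and none lower, against 28.6% and 28.2% of all genes. The ERBB3 groups overlapped, at 7664 to 7861 scaled counts in Parental EV and 7777 to 9959 in DTP EV. In Resistant EV, 1 was higher and 3 lower, against 38.3% and 43.9% of all genes. EGFR stood at 26190 ± 284, 7.73-fold below Parental EV, and ERBB2 was 1.52-fold lower, while ERBB3 was 2.53-fold higher. ERBB4 had 4 raw counts in all in Resistant EV and 22 in Parental EV. Its groups overlapped, at 0 to 3.73 scaled counts in Resistant EV and 2.86 to 9.44 in Parental EV. Under cATF6, EGFR was the 1 receptor of 4 called lower in Parental (log2 -0.17, SE 0.05, adjusted p = 0.0222) and in Resistant cells (log2 -0.38, SE 0.05). Of all genes, 7.73% and 19.9% were called lower there. In DTP cells ERBB3 (log2 -0.79, SE 0.08) and ERBB2 (log2 -0.60, SE 0.08) were lower, against 8.8% of all genes. Their DTP EV libraries ranged from 7777 to 9959 scaled counts for ERBB3 and from 8723 to 12133 for ERBB2. A fit of the DTP groups alone called 3 genes in all.

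The neuregulins, ligands of ERBB3 and ERBB4, had 3 of 4 genes tested. None was called in DTP EV, where NRG1 ranged from 459 to 1418 scaled counts. In Resistant EV 2 were called higher and 1 lower, against 38.3% and 43.9% of all genes: NRG1 fell to 16.1 ± 9.60 from 560.4 ± 12.4 (log2 -5.23, SE 0.79), and NRG4 and NRG2 stood at 47.5 ± 18.7 and 17.9 ± 6.06. NRG2, with 10 raw counts in all outside the Resistant libraries, passed the filter through those libraries alone. That favoured a difference, so its call is a description.

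The list of sheddases and their partners holds genes that act in the release of the ligands, and it also counts TIMP3, which inhibits ADAM17. ADAM17 itself was 1.23-fold lower in DTP EV (log2 -0.30, SE 0.06) and 1.16-fold higher in Resistant EV (log2 0.21, SE 0.06) than in Parental EV. Of 13 genes 5 were higher and 4 lower in DTP EV (median log2 0.08), against 28.6% and 28.2% of all genes, and there ADAM12, a metalloprotease that can cut HBEGF, rose 11.2-fold (log2 3.49, SE 0.21) and RHBDF2, an inactive rhomboid needed for ADAM17 to mature, fell 2.38-fold (log2 -1.25, SE 0.09). TIMP3, an inhibitor of ADAM17, rose from between 1.72 and 5.73 to between 11.3 and 75.3 scaled counts there. In Resistant EV 10 were higher and 2 lower, against 38.3% and 43.9% of all genes (median log2 0.66, beside -0.11 for all genes). ADAM8 rose 27.2-fold to 2837 ± 143 scaled counts and ADAM12 25.6-fold to 1015 ± 16.2, while TIMP3 went from 3.83 ± 2.02 to 75720 ± 749. ADAM10 stood at 6960 ± 186 scaled counts in Parental EV, 7346 ± 514 in DTP EV and 13790 ± 308 in Resistant EV. Under cATF6, 7 of the 13 were higher and 2 lower in Resistant cells, against 16.8% and 19.9% of all genes. TIMP3 stood at 18152 ± 164 scaled counts in Resistant OC and ADAM10 at 11151 ± 683, both below all Resistant EV libraries. In DTP cells 1 was higher and 2 lower, against 9.44% and 8.8%, and in Parental cells 1 went in each direction, against 6.13% and 7.73%.

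Most genes read as output of ERK signalling fell in both states. In DTP EV 14 of 16 were called lower and none higher, against 28.2% and 28.6% of all genes. The median log2 was -1.65, beside 0 for all genes. EGR1, an immediate early factor, fell 89.3-fold, DUSP6, an ERK phosphatase, 19.9-fold and DUSP5, a nuclear ERK phosphatase, 18.5-fold. Among the 16, groups overlapped for FOSL1, at 2719 to 2964 scaled counts in Parental EV and 943 to 2852 in DTP EV. They also overlapped for CCND1 (9034 to 9652 and 6037 to 9076), DUSP4 (1611 to 1708 and 816 to 1767), MYC and SPRY2. In Resistant EV 15 were lower and 1 higher, against 43.9% and 38.3% of all genes (median log2 -3.24), the 1 being DUSP5 (log2 0.89), named here after its values were seen. DUSP6 fell to 38.9 ± 10.7 scaled counts, 57.0-fold below Parental EV. In DTP cells cATF6 went with 9 of 16 higher and none lower, against 9.44% and 8.8% of all genes (median log2 0.41). Among the 9 were CCND1, a D cyclin (log2 0.55, SE 0.10), SPRED2, an inhibitor of ERK signalling (log2 0.65, SE 0.13), and ETV4, an ETS factor (log2 0.87, SE 0.20). A fit of the DTP groups alone called 3 genes in all. In Parental cells 2 were lower under cATF6 and none higher, against 7.73% and 6.13% of all genes, and in Resistant cells 6 were higher and 3 lower, against 16.8% and 19.9%.

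Of 14 receptor adaptors and feedback inhibitors, 6 rose and 6 fell in DTP EV, against 28.6% and 28.2% of all genes, and 5 rose and 7 fell in Resistant EV, near the 38.3% and 43.9% of all genes. ERRFI1, a feedback inhibitor that binds the EGFR kinase, fell 4.69-fold in DTP EV (log2 -2.23, SE 0.06) and 29.8-fold in Resistant EV (log2 -4.90, SE 0.06). Among 10 AP-1 factors 3 rose and 4 fell in DTP EV, against 28.6% and 28.2% of all genes, and FOS fell 14.8-fold and JUNB 4.27-fold. In Resistant EV 3 rose and 6 fell, against 38.3% and 43.9% of all genes, and FOSL1, which is also in the ERK output list, fell 84.2-fold. BATF, 1 of the 3 that rose there, passed the filter through the Resistant libraries alone. That favoured a difference, so its call is a description. In Parental cells cATF6 went with 5 of the 10 lower and none higher, against 7.73% and 6.13% of all genes, among them JUN (log2 -1.03, SE 0.09) and FOSL2 (log2 -0.58, SE 0.04).

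The genes whose log2 levels followed each ligand most closely were taken among genes with a mean of at least 100 scaled counts, as a description. Over the 12 Parental and DTP libraries, which fall into 2 separate states, the closest gene was GSR for AREG (Pearson r 0.999), UGDH for EREG (0.997), MEX3B for HBEGF (0.992), ABCC3 for TGFA (0.993), RDH11 for BTC (0.977), MSL1 for EGF (0.990) and SBK2 for EPGN (0.815). Over all 18 libraries it was MTHFD2 for AREG (0.993), ASPH for EREG (0.995), OLFML2A for HBEGF (0.981), HFE for TGFA (0.991), MRPL13 for BTC (0.970), ERP44 for EGF (0.996) and SBK2 for EPGN (0.974). DUSP6 was among the 3 closest to EREG over the 18 (0.994). These values share the states and the library series, so any gene that separates the states in the same order scores high. Over the 12 libraries EPGN had only 0 to 10 raw counts per library, so its closest gene there carries little meaning.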

How the data were processed

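RNA of 24 HCC827 samples was depleted of ribosomal RNA and made into directional libraries, per the labels' protocols; the 18 in 6 groups of 3 were compared by gene. FastQC, STAR, featureCounts, MultiQC and build hg19 are listed, per the submitters' processing notes; tool versions, the annotation and the strand setting are not given in the sources used here. The gene values deposited by the authors are log10(count + 1) without any scaling, and 100% were whole numbers once the log10 was undone (tolerance 1e-06). Among 22549 lines, 2557 unnamed new genes and 15 symbols with several lines were left out. The new genes held 0.734% to 0.845% of a library's counts in Parental and DTP cells and 1.491% to 1.535% in Resistant cells. In all, 12 columns of per-sample values were not used. The circular RNA table served only to look up host genes.

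A log10 unit calls for limma (version 3.58.1, R 4.3.3), which was run with a trend on log2(scaled count + 1) after TMM scaling (a trimmed mean, trims 0.3 and 0.05), over the 18 libraries together and with no covariate. The filter asked for 10 counts in 3 libraries and kept 15211 genes, over which two-sided p-values were adjusted (Benjamini-Hochberg, threshold 0.05). Folds were taken from the fitted log2 values and understate changes of low genes. Alternatives were median-of-ratios and quantile scaling, no filter, no trend, voom weights, another pseudocount (0.1), replicate blocks, fits of fewer groups, and each library left out. The fit was tested on simulated counts that had the same spread setting in all genes and groups and reused the scaling and filter. That test does not cover the scaling, the filter or the wider spread of DTP EV. The members, gene lists and tests were chosen with earlier results of these data known. By rule the text names the 7 ligands, EGFR, ERBB2, ERBB3, ADAM17 and DUSP6. It also names genes among the 3 with the smallest p of their list in that comparison, and the genes most like each ligand. Named after their values were seen were ERBB4 and DUSP5 in Resistant cells, ADAM10, TIMP3 under cATF6, BATF and the flanking genes. So were the single marker genes picked out of their sums, and the ERK output genes named for overlapping groups in DTP EV. Library totals were 30075330 to 45068508 counts, and the depth limits EPGN most, with 9 to 15 raw counts per group outside the Resistant libraries.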

Additional observations from a re-analysis of the deposited data

Results flagged for a closer look

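The following ligands responded to cATF6 differently in different states, by a test of the difference itself (limma, adjusted over all genes tested). For BTC the OC effect in DTP cells minus that in Parental cells was -0.65 in log2 (adjusted p = 0.0152), with BTC higher under cATF6 in all 3 Parental libraries and overlapping in DTP cells. For BTC in Resistant minus Parental cells it was -1.23 (adjusted p = 2e-05), and the direction was opposite in the 2 states, higher in all Parental OC libraries and lower in all Resistant OC libraries. For BTC in Resistant minus DTP cells it was -0.59 (adjusted p = 0.0091). For TGFA in Resistant minus Parental cells it was -0.54 (adjusted p = 0.0234). For EREG in Resistant minus DTP cells it was -0.98 (adjusted p = 0.0029), with DTP EV replicate 1 (2649 scaled counts) within the range of the DTP OC libraries (2281 to 2923). For AREG in Resistant minus DTP cells it was 0.69 (adjusted p = 0.0444), past the threshold in 4 of 26 other settings. State and library series cannot be told apart in those that involve Resistant cells.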

How the results depend on the processing

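Over settings other than leaving out a library, 500 values of single ligands kept their direction and their side of the threshold, 17 lost a call, 13 gained one and 2 turned sign. The latter were EPGN under cATF6 in DTP cells, at -8.3293e-06 with median-of-ratios scaling and -0.45 with quantile normalization (0.01 in the report). Quantile normalization shifted the median of all genes by 0.135 in log2 in the comparison of Resistant with Parental EV. The 3 comparisons between states called 6, 7 and 7 ligands, with 6 to 7 over libraries left out. Fits of the compared groups alone moved counts most: Parental OC against EV went from 2109 to 5137 genes and from 1 to 5 ligands, DTP OC against EV from 2775 to 3 genes and from 1 to 0 ligands, and the Resistant minus Parental difference from 2 to 4 ligands. For DTP OC the ligand count was also 0 without the trend and without the Resistant libraries. Quantile normalization left 3 of 5 ligands in Resistant OC, and voom weights gave 2 in place of 1 for the DTP minus Parental difference. The cause was not tested.

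Leaving out each library in turn gave 1385 to 2963 genes and 1 to 2 ligands for Parental OC, 1483 to 4652 genes and 0 to 1 ligands for DTP OC, and 2 to 5 ligands for Resistant OC (2 without Resistant OC replicate 2, 3 without each Resistant EV library or Resistant OC replicate 1). The highest DTP OC count, 4652, was without DTP EV replicate 1 and the lowest without DTP EV replicate 3; the lowest Parental OC count was without Parental EV replicate 1. Differences between states called 1 to 2 ligands (DTP minus Parental), 1 to 3 (Resistant minus Parental) and 2 to 4 (Resistant minus DTP). Single values near 0 that turned sign ranged, in log2, from -0.65 to 0.35 for EPGN in DTP against Parental EV, and under cATF6 in DTP cells from -0.39 to 0.61 for EPGN, -0.19 to 0.039 for BTC, -0.083 to 0.12 for HBEGF and -0.26 to 0.043 for TGFA. HBEGF ranged from -0.031 to 0.53 in Parental OC and from -0.50 to 0.065 for its DTP minus Parental difference, and EPGN from -0.73 to 0.49 for its Resistant minus Parental difference.

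Replicate numbers did not pair the samples: in 0 of 15 pairs of groups were all same-numbered correlations above 0.1. With the replicate block, DTP against Parental EV called 8561 genes, Parental OC 1944, DTP OC 2613 and Resistant OC 5471, and the ligand counts were as before except for the Resistant minus DTP difference, at 2 after AREG (adjusted p = 0.0506). Depth limits EPGN outside the Resistant libraries.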

Other observations

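None of the 2997 circular RNA lines deposited for the DMSO and osimertinib libraries is hosted by a ligand gene (0 of 2997, over all 7 symbols). The share of all genes that host a line was not counted, so this does not set the ligands apart from other genes. Whether the lines are all circular RNAs detected or a selection was not checked. Of the genes that flank the ligand cluster on chromosome 4, chosen after the values were seen, MTHFD2L, beside EPGN, had log2 -0.51 (adjusted p = 0.0621) in DTP EV and -3.07 in Resistant EV against Parental EV, so that it fell in Resistant EV while EPGN rose. PARM1, beyond BTC, had 3096 to 3133 scaled counts in Parental EV and 587 to 3827 in DTP EV, so the groups overlapped although the difference was called (log2 -1.47, adjusted p = 0.0105). In Resistant EV its 4687 to 5232 scaled counts lay wholly above Parental EV, with a difference that was not called (log2 0.67, adjusted p = 0.179).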
